A study of Homo sapiens with 6 samples.

Results

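Dynactin is the multi-subunit complex that couples cytoplasmic dynein, the motor that walks toward the minus end of microtubules, to its cargo and keeps the motor moving along its track. Its core is a short filament of the actin-related protein ARP1, closed at the barbed end by actin capping protein and at the pointed end by a small group of further subunits, while a shoulder and a long arm on the side of the filament reach dynein and the microtubule. Cells use it to carry vesicles, organelles and signalling endosomes inward, to position the nucleus and to build the mitotic spindle.

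The 9 genes that encode the subunits proper to dynactin are described here, ACTR1A, ACTR1B, ACTR10 and DCTN1 to DCTN6, out of 58825 gene rows in the table. They were taken by gene name, and each name had 1 Ensembl identifier. The complex was chosen by the measured levels of ACTR1A and DCTN5, whose difference between MA treated and untreated cells led to it, so their differences are given as a description, without a test. The other 7 subunits were taken for their membership.

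RNA-seq was performed on 6 samples of PANC-1, an established line of human pancreatic carcinoma cells. In the MA group (MA PANC-1 1, 2 and 3) the cells were exposed for 24 h to 40 μM maslinic acid (MA), a plant triterpenoid, and the PANC-1 group (PANC-1 1, 2 and 3) was untreated. The question was which transcripts differ between MA treated and untreated cells. The study's methods call the samples biological replicates, all come from 1 cell line, and the labels call the controls untreated, while the study's methods name DMSO as the control of its treatments in general.

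The estimated counts of a library ran from 56978375 (MA PANC-1 1) to 70275355 (PANC-1 1), with 58181114 in MA PANC-1 3, 59422939 in PANC-1 3, 63984133 in MA PANC-1 2 and 65607669 in PANC-1 2. In every library this total exceeds the number of valid reads that the study reported. The estimated counts are therefore not numbers of sequenced fragments, and why they are larger was not tested. Levels are given as FPKM, fragments per kilobase of the gene scaled to the size of the library, and means as mean ± SD of the 3 samples of a group. MA PANC-1 2 stood apart from the other libraries on the first principal component, which held 27.7% of the variance, at -62.7 against a range of -20.8 to 35.7 in the other 5. Its count-weighted GC content was 51.2%, and that of the others lay between 49.8% and 50.3%. Values without this library are therefore given beside those of the subunits and of several partner genes. RNA of a whole culture was measured, so fewer cells of a kind and less RNA per cell cannot be told apart.

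Markers of the labelled cell type were checked first. The epithelial keratins KRT18 and KRT8 were abundant, KRT18 at 278 to 338 FPKM over the 6 samples, and so was the mesenchymal filament gene VIM at 521 to 754 FPKM. The other mesenchymal markers were lower, CDH2 at 12.2 to 17.3 FPKM, ZEB1 at 0.609 to 1.42 FPKM and FN1 at 0.329 to 0.835 FPKM. The other epithelial markers were low too. KRT7 measured 1.40 to 2.19 FPKM and CDH1 0.778 to 1.28 FPKM, and EPCAM and KRT19 did not exceed 0.132 FPKM in any sample. The 4 acinar markers and the 4 endocrine markers summed to at most 0.0163 FPKM in a sample, and the 4 endothelial markers to at most 0.18 FPKM. Of the 4 immune markers only CD68, a lysosomal protein also made outside the immune system, exceeded 1 FPKM, at 25.6 to 40.9.

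The ARP1 filament is made from a pair of close paralogs, ACTR1A and ACTR1B. ACTR1A (ENSG00000138107) lies on the minus strand of chromosome 10 at 102461881 to 102502712 in GRCh38, and ACTR1B (ENSG00000115073) on the minus strand of chromosome 2 at 97655963 to 97664107. Their coding sequences in GENCODE release 29 (transcripts ENST00000369905 and ENST00000289228) are both 1128 bases long, differ at 232 of them and are 79.4% identical. The most alike stretch is shown because it bears on whether reads of these genes can be told apart. It is coding bases 481 to 545, counted from the first base of the start codon, in exon 6 of 11 of either gene, at chr10:102484272-102484336 and chr2:97658539-97658603, written 5′ to 3′ on the gene's own strand. Capitals mark the bases that differ.
ACTR1A: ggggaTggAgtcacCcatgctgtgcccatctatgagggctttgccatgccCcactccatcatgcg
ACTR1B: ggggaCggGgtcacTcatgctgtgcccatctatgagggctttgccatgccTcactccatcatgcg
Even in these 65 bases there are 4 differences, and the longest identical run of the coding sequences is 35 bases. None of the 2680 windows of 150 bases, the read length, in the ACTR1A transcript and none of the 2094 in the ACTR1B transcript occurs in a transcript of another gene.

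ACTR1A and ACTR1B stood at like FPKM in untreated cells and at different FPKM in MA treated cells. The likeness between the genes rests on the fixed lengths behind FPKM. Up to a factor common to nearly all genes, these followed the union of a gene's exons in GENCODE release 29. This union is 4.65 kb for ACTR1A and 2.89 kb for ACTR1B, longer than the transcripts shown, of 2829 and 2243 bases. ACTR1A measured 16.2, 15.3 and 15.6 FPKM in PANC-1 1, 2 and 3, and 39.1, 41.8 and 34.3 FPKM in MA PANC-1 1, 2 and 3. The MA samples all lay above the untreated ones, and the lowest MA value was more than double the highest untreated one. The means were 38.4 ± 3.79 FPKM with MA and 15.7 ± 0.498 FPKM without (SD, n = 3 each), and the log2 fold change in edgeR was 1.33 (SE 0.12), a fold of 2.52. Without MA PANC-1 2 it was 1.23.

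ACTR1B measured 15.9, 16.0 and 16.2 FPKM in untreated cells and 16.9, 18.3 and 15.7 FPKM with MA. The groups overlapped, since MA PANC-1 3 was below every untreated sample. Its log2 fold change was 0.12 with a 95% interval of -0.14 to 0.39, and it did not pass edgeR's test (adjusted p = 0.686). When MA PANC-1 2 was left out, it stood at 0.02.

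The paralogs' shares followed from these values. ACTR1A made up 49.5% ± 0.954 of the summed ARP1 FPKM in untreated cells, with a range of 48.8% to 50.6%, and 69.3% ± 0.615 with MA, with a range of 68.6% to 69.8%. These shares depend on the same lengths. The ratio of ACTR1A to ACTR1B was 0.979 ± 0.0377 without MA and 2.26 ± 0.0648 with it. Within either group this ratio varied little from sample to sample, and MA PANC-1 2, at 2.28, lay between the other MA samples. The summed ARP1 level was 31.7 ± 0.416 FPKM in untreated and 55.4 ± 5.08 FPKM in MA treated cells. These shares contain the ACTR1A values that led to the choice of the complex and are given without a test.

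**Figure D1:**
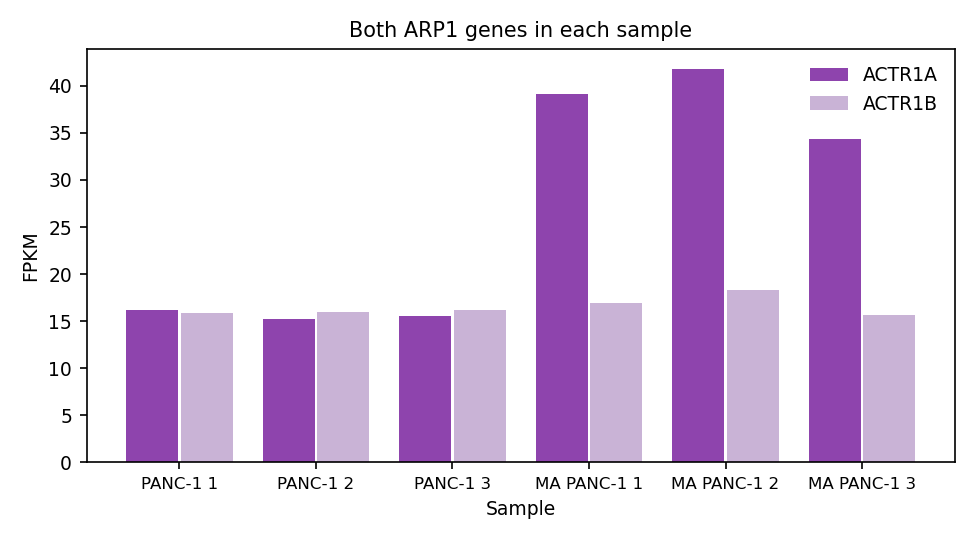
FPKM (vertical axis) of ACTR1A (dark bars) and ACTR1B (light bars), which encode the ARP1 filament, in each of the 6 samples. The paired bars are nearly equal in PANC-1 1 to 3, and the dark bar is 2.19 to 2.31 times the light one in MA PANC-1 1 to 3.

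A gene on the opposite strand, MFSD13A, overlaps ACTR1A. Its estimated counts were 717, 1166 and 694 with MA and 951, 778 and 724 without, while those of ACTR1A were 12336, 14882 and 11107 with MA and 6342, 5571 and 5133 without. The MFSD13A counts overlapped between the groups and were below those of ACTR1A in every sample. The library kit keeps the strand, but whether the counting used it is not given in the sources used here.

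The pointed end of the filament is closed by ACTR10, an actin-related protein, together with DCTN4, DCTN5 and DCTN6, which take part in binding membranes and cargo adaptors. ACTR10 (ENSG00000131966, chromosome 14, plus strand, 58200080 to 58234790) measured 8.65, 8.92 and 9.37 FPKM in untreated cells and 9.71, 7.09 and 10.3 FPKM with MA. MA PANC-1 2 was the lowest sample of all and the other MA samples were the highest. The log2 fold change was 0.04 with a 95% interval of -0.28 to 0.35 (edgeR, adjusted p = 0.934), and it was 0.15 without MA PANC-1 2. Once library GC trends were removed, it was 0.23, at an unadjusted p of 0.0143 and an adjusted p of 0.271 in edgeR.

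DCTN4 (ENSG00000132912, chromosome 5, minus strand, 150708440 to 150759109) measured 10.7, 3.89 and 10.9 FPKM in PANC-1 1, 2 and 3. In MA PANC-1 1, 2 and 3 it measured 11.3, 8.39 and 3.49 FPKM. One library of each group, PANC-1 2 and MA PANC-1 3, was low, and the groups overlapped over almost their whole range. The coefficient of variation was 46.9% in untreated and 51.1% in MA treated cells. The log2 fold change of -0.09 had a 95% interval of -1.27 to 1.09 (edgeR, adjusted p = 0.96), so a difference of a doubling in either direction was not detectable here. It moved between -0.44 and 0.27 when 1 sample at a time was left out, at -0.19 without MA PANC-1 2.

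DCTN5 (ENSG00000166847, chromosome 16, plus strand, 23641466 to 23677472) measured 1.83, 7.13 and 6.45 FPKM in PANC-1 1, 2 and 3, and 2.04, 2.02 and 2.77 FPKM in MA PANC-1 1, 2 and 3. PANC-1 2 and PANC-1 3 were high, and PANC-1 1 was lower than every MA sample, so the groups overlapped. The means were 2.28 ± 0.428 FPKM with MA and 5.14 ± 2.88 FPKM without, and the log2 fold change was -1.14 (SE 0.46). It was -1.55 without PANC-1 1 and -0.83 without PANC-1 2, and it lay between these values when any other sample was left out, at -1.10 without MA PANC-1 2. Of the 150-base windows in the longest DCTN5 transcript, 26.5% also occur in AC008870.1, a gene inside it on the same strand, which had no count in any sample.

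DCTN6 (ENSG00000104671, chromosome 8, plus strand, 30156319 to 30183639) measured 13.6, 10.3 and 14.3 FPKM in untreated cells and 9.59, 8.53 and 11.7 FPKM with MA. The MA samples tended lower, but MA PANC-1 3 exceeded PANC-1 2. The log2 fold change of -0.33 (95% interval -0.71 to 0.06) did not pass edgeR's test (adjusted p = 0.489). Without MA PANC-1 2 it was -0.26, and with library GC trends removed -0.08. LEPROTL1 shares 10.8% of the 150-base windows of the DCTN6 transcript.

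The samples did not take the same order in all pointed-end genes. PANC-1 2 held the highest DCTN5 value and, among the untreated samples, the lowest DCTN4 and DCTN6 values. MA PANC-1 3 held the lowest DCTN4 value and, among the MA samples, the highest DCTN5, DCTN6 and ACTR10 values.

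**Figure D2:**
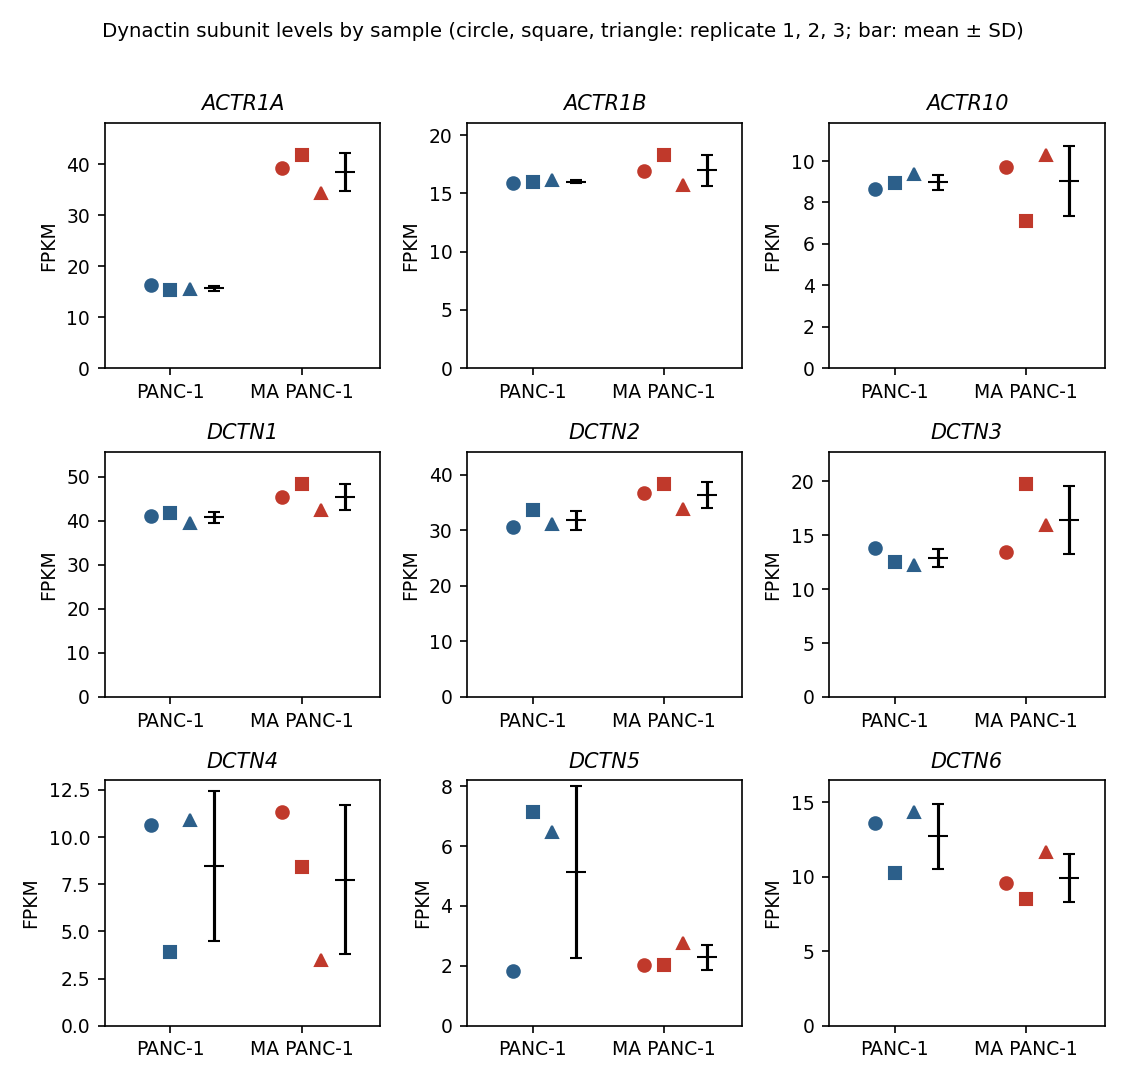
FPKM (vertical axes, each from 0) of the 9 dynactin subunit genes in 3 untreated (blue) and 3 MA treated (red) PANC-1 samples, with the group mean ± SD beside the points. Only ACTR1A, whose difference led to the choice, DCTN1 and DCTN2 have groups that do not overlap. Of all genes, 19.9% lay apart in either direction and 8.79% with MA higher. DCTN4 and DCTN5 spread widely within a group.

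The shoulder and arm are built from DCTN1, the long subunit that binds dynein and microtubules, DCTN2, also called dynamitin, whose excess takes the complex apart, and DCTN3, the smallest shoulder subunit. DCTN1 (ENSG00000204843, chromosome 2, minus strand, 74361154 to 74392036) measured 41.2, 41.8 and 39.5 FPKM in untreated cells and 45.3, 48.5 and 42.5 FPKM with MA. Each MA sample lay above each untreated sample, the nearest values being 42.5 and 41.8. The log2 fold change was 0.19 (95% interval -0.04 to 0.43) and did not pass edgeR's test (adjusted p = 0.493). It was 0.10 without MA PANC-1 2, and also 0.10 with library GC trends removed. Of the 150-base windows of the DCTN1 transcript 11.8% also occur in AC006030.1, a gene on the same strand with counts of 9 and 11 in PANC-1 2 and 3 and 0 in the other samples.

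DCTN2 (ENSG00000175203, chromosome 12, minus strand, 57530102 to 57547331) measured 30.6, 33.7 and 31.1 FPKM without MA and 36.7, 38.4 and 33.8 FPKM with it. Here too the groups did not overlap, although PANC-1 2 and MA PANC-1 3 were almost equal. The log2 fold change was 0.23 (SE 0.11, edgeR, adjusted p = 0.464) and 0.15 without MA PANC-1 2. MBD6 on the opposite strand shares the end of the DCTN2 locus, and its counts of 3535 to 5372 overlapped between the groups.

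DCTN3 (ENSG00000137100, chromosome 9, minus strand, 34613545 to 34620523) measured 13.8, 12.5 and 12.3 FPKM in untreated cells and 13.5, 19.8 and 16.0 FPKM with MA. MA PANC-1 2 was highest and MA PANC-1 1 fell within the untreated range. The log2 fold change of 0.39 (95% interval -0.01 to 0.80, edgeR, adjusted p = 0.451) was 0.19 without MA PANC-1 2, so this library carried much of it. The ratio of DCTN2 to DCTN1 was 0.779 ± 0.0326 without MA and 0.800 ± 0.00925 with it, a difference smaller than the spread between untreated samples.

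The study called a gene a DEG when it changed at least 2-fold, up or down, with an unadjusted p under 0.05. In edgeR this rule took 1.92% of the 17774 genes tested, 0.675% upward and 1.25% downward. ACTR1A, upward, and DCTN5, downward, met it by the values that led to their choice, and nothing is read from their number. At an unadjusted p under 0.05 alone, 11.2% of all genes were called, and 0 of the other 7 subunits. This count was also 0 without MA PANC-1 2, but 3 without MA PANC-1 3 (DCTN1 and DCTN2 upward, DCTN6 downward), where 8.39% of all genes were called upward and 9.69% downward. No other subunit passed an adjusted p of 0.05 either, which 0.0394% of all genes did. The groups did not overlap in 2 of these 7, DCTN1 and DCTN2, both higher with MA, where 8.79% of all genes had MA higher and 19.9% lay apart in either direction. The median log2 fold change was 0.12 over the 7 and -0.00 over all genes tested. Over the 7 it was 0.26 when MA PANC-1 3 was left out.

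**Figure D3:**
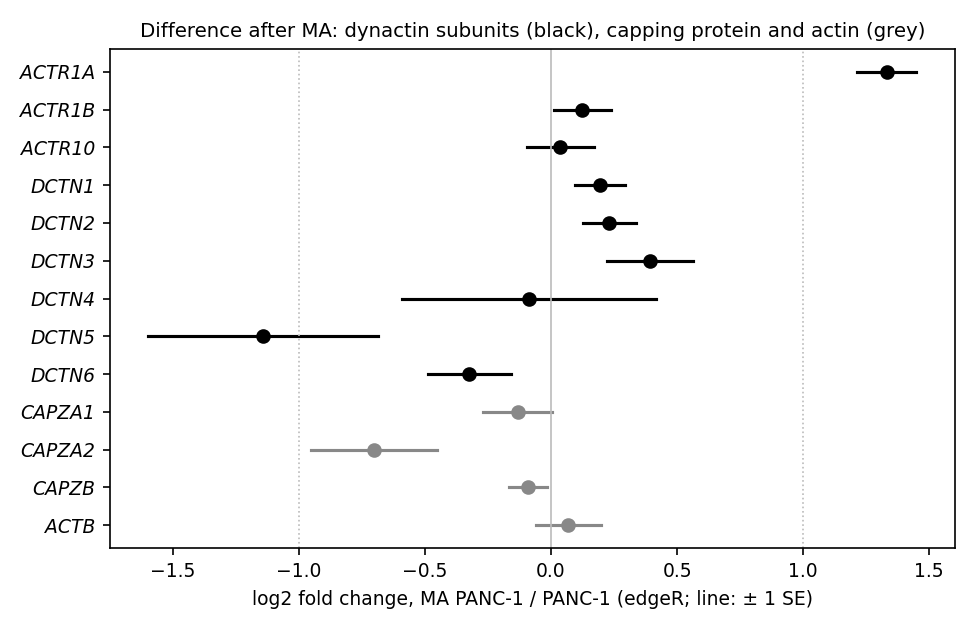
Log2 fold change between MA treated and untreated PANC-1 (horizontal axis; dotted lines at a doubling and a halving), with lines of 1 SE, for the 9 dynactin subunits (black) and for capping protein and actin (grey). ACTR1A lies at 1.33 and DCTN5 at -1.14 with a wide error, and the other 7 subunits lie between -0.33 and 0.39.

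In untreated cells the subunits ranked by FPKM as DCTN1 at 40.8, DCTN2 at 31.8, ACTR1B at 16.0, ACTR1A at 15.7, DCTN3 at 12.9, DCTN6 at 12.7, ACTR10 at 8.98, DCTN4 at 8.48 and DCTN5 at 5.14 on average. Neighbours overlapped between samples for ACTR1B and ACTR1A, for DCTN3 and DCTN6, for ACTR10 and DCTN4, and for DCTN4 and DCTN5. The shoulder and arm genes DCTN1 and DCTN2 were thus above every other subunit, and DCTN1 stood above 94.6% of the genes tested. In MA treated cells ACTR1A, at 38.4, lay between DCTN1 at 45.4 and DCTN2 at 36.3 and overlapped with DCTN2. The ratio of ACTR1A to DCTN1 was 0.385 ± 0.0168 in untreated and 0.844 ± 0.0319 in MA treated cells.

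The FPKM values divide each gene by 1 fixed length in all samples. By the union of exons, DCTN5 at 12.7 kb was the longest of the 9 and DCTN6 at 1.98 kb the shortest, so levels of different subunits depend on these lengths. Whether DCTN5 would leave the foot of the order at other lengths was not tested. The comparison between MA and untreated cells does not depend on the lengths.

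Summed over the 9 genes the level was 153 ± 3.11 FPKM without MA and 183 ± 11.3 FPKM with it. Without ACTR1A the sum of the other 8 was 137 ± 2.99 FPKM and 144 ± 7.47 FPKM, with ranges of 134 to 140 and 136 to 151 that overlapped. ACTR1A made up 10.3% ± 0.327 of the sum of the 9 in untreated and 21.0% ± 0.797 in MA treated cells, values that again contain its chosen difference.

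The spread within groups also set the subunits apart. The SD of log2 FPKM within groups was 0.0733 for DCTN1, 0.0787 for ACTR1B and 0.0844 for DCTN2, at percentiles 4.61, 5.58 and 6.81 of the genes tested. It was 0.851 for DCTN4 and 0.771 for DCTN5, at percentiles 91.3 and 89.6. ACTR10, DCTN3 and DCTN6 lay near the middle, at 0.206, 0.206 and 0.243.

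**Figure D4:**
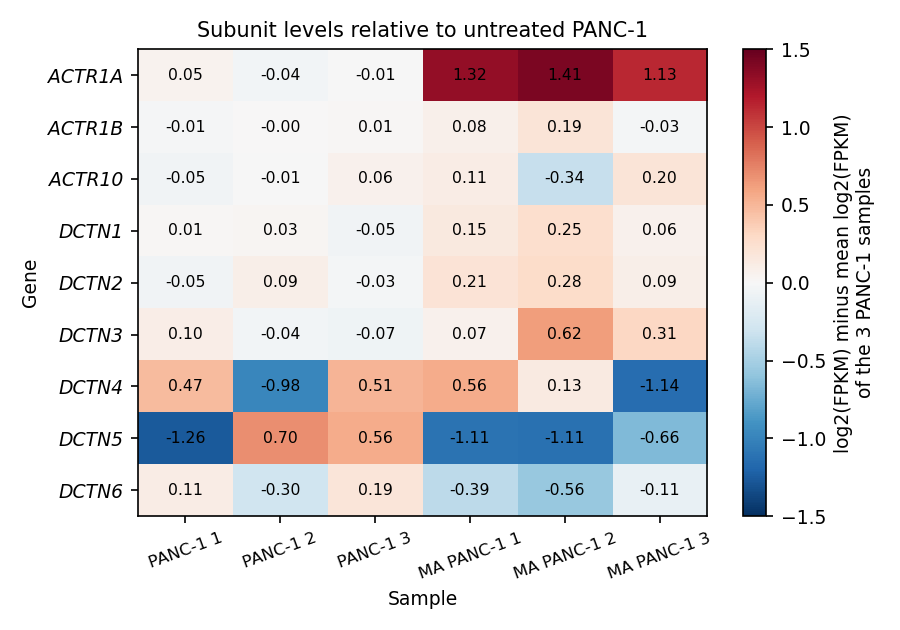
Log2 FPKM of each subunit in each sample minus the mean log2 FPKM of the 3 untreated samples, from blue (lower) to red (higher). ACTR1A is between 1.13 and 1.41 in the MA samples, DCTN5 is at -1.26 in PANC-1 1 as well as low in the MA samples, and DCTN4 is low in PANC-1 2 and MA PANC-1 3.

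The filament also contains proteins that work outside dynactin, the capping protein subunits CAPZA1, CAPZA2 and CAPZB at the barbed end and β-actin (ACTB). CAPZA2 measured 6.07, 3.57 and 6.67 FPKM in untreated cells and 3.34, 2.48 and 3.99 FPKM with MA. MA PANC-1 3 exceeded PANC-1 2, so the groups overlapped. Its log2 fold change was -0.70 (SE 0.25) at an unadjusted p of 0.0258 and an adjusted p of 0.429 in edgeR. CAPZB measured 107, 110 and 108 FPKM without MA and 101, 96.6 and 99.9 FPKM with it, without overlap, at a log2 fold change of -0.09 (edgeR, adjusted p = 0.645). CAPZA1 and ACTB had log2 fold changes of -0.13 and 0.07 with overlapping groups, which were -0.03 and 0.02 when MA PANC-1 2 was left out. With library GC trends removed CAPZA1 stood at -0.01. Of the 4 genes 1 passed the unadjusted threshold, downward, beside 5.86% of all genes. Without MA PANC-1 2 none did, beside 5.81% of all genes, and CAPZA2 stood at -0.57 (unadjusted p of 0.0856 in edgeR). None did without MA PANC-1 1, PANC-1 1 or PANC-1 3 either, beside 4.13%, 3.53% and 3.49% of all genes downward. Without MA PANC-1 3 or PANC-1 2 1 gene passed, downward, beside 9.69% and 4.2%. Once library GC trends were removed, CAPZA2 and CAPZB passed it, both downward, beside 6.39% of all genes.

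Dynein 1 is the cytoplasmic motor that dynactin activates. Of its 11 subunit genes 10 were tested, DYNLRB2 being too low, and 2 passed the unadjusted threshold, both upward, beside 5.37% of all genes. Without MA PANC-1 2 the count was again 2, beside 4.51%, with DYNLL2 at 0.48 and DYNLRB1 at 0.28. DYNLL2, a light chain that also dimerises other proteins, measured 8.67, 8.20 and 7.71 FPKM in untreated cells and 11.7, 11.8 and 11.2 FPKM with MA. The groups were well apart, with a log2 fold change of 0.53 (SE 0.10) at an unadjusted p of 0.000839 in edgeR, and its adjusted p was 0.222, against 0.00452 in DESeq2. DYNLRB1, a light chain of the roadblock family, measured 43.2, 42.9 and 38.1 FPKM without MA and 52.3, 54.1 and 48.5 FPKM with it. Its groups did not overlap either (log2 fold change 0.36, SE 0.11, edgeR, adjusted p = 0.388). The most abundant member, the light chain DYNLL1, measured 79.5 ± 0.529 FPKM with MA and 74.3 ± 5.43 FPKM without. DYNC1H1, the heavy chain that carries the motor, had a log2 fold change of -0.00 (SE 0.17), and the median of the 10 was 0.05.

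Dynein 2 is the motor of intraflagellar transport in cilia. All 5 of its subunit genes on the list were tested, and 0 passed the unadjusted threshold, beside 11.2% of all genes in either direction. When MA PANC-1 3 was left out 2 passed it, both downward, beside 9.69% of all genes, and 1 did under a replicate block, downward, beside 6.96%. Their median log2 fold change was -0.24, and -0.11 without MA PANC-1 2. The most abundant, the intermediate chain WDR34, measured 42.4 ± 4.80 FPKM with MA and 40.4 ± 1.59 FPKM without, a log2 fold change of 0.11 that was -0.03 when MA PANC-1 2 was left out.

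Of the 4 dynein regulators LIS1 (PAFAH1B1), NDE1, NDEL1 and NUDC, 0 passed the unadjusted threshold, beside 11.2% of all genes in either direction, with a median log2 fold change of 0.11. When MA PANC-1 2, MA PANC-1 3 or PANC-1 1 was left out 1 did, upward, beside 4.51%, 8.39% and 3.1% of all genes, and 1 did under a replicate block, beside 5.5%. NUDC, a chaperone that stabilises LIS1, was the most abundant at 126 ± 13.2 FPKM with MA and 114 ± 3.85 FPKM without, a log2 fold change of 0.19 that was 0.06 when MA PANC-1 2 was left out. PAFAH1B1, which opens the dynein motor for assembly with dynactin, had a log2 fold change of -0.03 (SE 0.08).

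Cargo adaptors bind dynein and dynactin together and link them to vesicles and organelles. Of 18 such genes 15 were tested, 3 passed the unadjusted threshold upward and 2 downward, beside 5.37% and 5.86% of all genes, and their median log2 fold change was 0.06, or -0.02 with library GC trends removed. HAP1, an adaptor first known as a huntingtin partner, measured 0.330, 0.282 and 0.344 FPKM in untreated cells and 0.580, 0.592 and 0.565 FPKM with MA. The groups did not overlap, at a log2 fold change of 0.90 (SE 0.20, edgeR, adjusted p = 0.357), but the gene was near the foot of the range tested. Its adjusted p in DESeq2 was 0.0228. BICDL1, a linker to secretory vesicles, measured 1.3, 2.03 and 2.03 FPKM without MA and 2.43, 2.69 and 2.56 FPKM with it (log2 fold change 0.55, SE 0.21, edgeR, adjusted p = 0.431). It was 0.48 when MA PANC-1 2 was left out, at an unadjusted p of 0.0808 in edgeR. SPAG9, a scaffold that joins JNK signalling to transport, measured 10.6, 10.6 and 10.4 FPKM without MA and 8.78, 7.56 and 9.15 FPKM with it, again without overlap (log2 fold change -0.28, SE 0.08, edgeR, adjusted p = 0.388). Once library GC trends were removed, it was -0.14 at an unadjusted p of 0.0628 in edgeR. Without MA PANC-1 2 the list had 1 gene past the unadjusted threshold upward and 2 downward, beside 4.51% and 5.81% of all genes. Without MA PANC-1 3 it had 3 upward and 4 downward, beside 8.39% and 9.69%. The other fits that left out 1 sample gave 1 to 2 upward, beside 3.1% to 3.8%, and 1 downward, beside 3.49% to 4.2%. On all samples the other genes past the unadjusted threshold were RAB11FIP3, upward, and HOOK3, downward.

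In mitosis dynein and dynactin are brought to kinetochores, the nuclear envelope and the cell cortex by a separate set of proteins. Of the 7 genes on this list 4 passed the unadjusted threshold, all downward, beside 5.86% of all genes, and in these 4 the groups did not overlap, where 11.1% of all genes had MA lower without overlap. The median log2 fold change was -0.37. The count depended on single samples. It was 0 without MA PANC-1 1 or without PANC-1 3, 1 without PANC-1 2, 2 without PANC-1 1, 3 without MA PANC-1 2 and 5 without MA PANC-1 3, beside 3.49% to 9.69% of all genes downward. The list's median lay between -0.55 and -0.32 in these fits. With library GC trends removed it was -0.21, and 3 genes passed, beside 6.39% of all genes downward. CENPF, a kinetochore and nuclear envelope protein that peaks in G2 and mitosis, measured 9.49, 8.89 and 11.2 FPKM in untreated cells and 5.41, 2.01 and 7.33 FPKM with MA. MA PANC-1 2 was the lowest sample, and the log2 fold change of -0.99 (SE 0.39, edgeR, adjusted p = 0.435) was -0.63 without it. KNTC1, the scaffold of the RZZ complex that recruits dynein to kinetochores, measured 3.30, 2.92 and 3.43 FPKM without MA and 2.10, 1.56 and 2.74 FPKM with it (log2 fold change -0.56, SE 0.18, edgeR, adjusted p = 0.417). It was -0.41 without MA PANC-1 2. Its partner ZWILCH had a log2 fold change of -0.37 (SE 0.14), -0.32 without MA PANC-1 2 and -0.12 with the GC trend removed, and the kinetochore adaptor SPDL1 one of -0.65 (SE 0.26). ZW10, the third member of the RZZ complex and the most abundant gene of the list, measured 17.6 ± 3.22 FPKM with MA and 17.6 ± 1.43 FPKM without. None of the 7 passed an adjusted p of 0.05.

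At growing microtubule ends DCTN1 is held by EB and CLIP proteins, and the list also held CLASP1 and CLASP2, which stabilise these ends. Of its 7 genes CLIP1, which tracks the ends and binds DCTN1, was the 1 past the unadjusted threshold, downward, beside 5.86% of all genes. It measured 3.98, 3.96 and 3.64 FPKM in untreated cells and 2.35, 1.87 and 3.65 FPKM with MA. MA PANC-1 3 was as high as PANC-1 3, so the groups touched (log2 fold change -0.53, SE 0.21, edgeR, adjusted p = 0.436). Without MA PANC-1 2 it was -0.37 at an unadjusted p of 0.1 in edgeR. Among the fits that left out 1 sample, CLIP1 passed only without MA PANC-1 3, at -0.82, beside 9.69% of all genes downward. In the others its unadjusted p was 0.0619 to 0.117 in edgeR. MAPRE1, which encodes EB1 and was the most abundant, measured 134 ± 15.9 FPKM with MA and 136 ± 6.26 FPKM without. The median of the 7 was 0.01, but 0.15 without MA PANC-1 2, 0.21 without PANC-1 3 and -0.02 without MA PANC-1 3. Leaving out MA PANC-1 3 gave 2 upward calls beside 8.39% of all genes, and leaving out PANC-1 3 gave 1 beside 3.26%.

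The actin-related proteins outside dynactin serve branched actin and chromatin complexes. Of 8 such genes 7 were tested, and 1 passed the unadjusted threshold in each direction, beside 5.37% of all genes upward and 5.86% downward. Only the downward gene, ACTR3, passed it without MA PANC-1 2, beside 5.81%. With library GC trends removed 2 genes passed upward and 0 downward, beside 7.57% and 6.39% of all genes. With a replicate block 0 passed upward and 2 downward, beside 5.5% and 6.96%. Without MA PANC-1 3 the counts were 1 and 2, beside 8.39% and 9.69%. They were 0 and 1 in every other fit that left out 1 sample. ACTR3, a core subunit of the Arp2/3 complex that branches actin filaments, measured 21.0, 21.7 and 22.2 FPKM in untreated cells and 14.0, 14.0 and 15.8 FPKM with MA. The groups lay well apart (log2 fold change -0.53, SE 0.08) at an unadjusted p of 0.000315 in edgeR, and its adjusted p was 0.174, against 0.000657 in DESeq2. Once library GC trends were removed, it stood at -0.20 at an unadjusted p of 0.236 in edgeR. ACTR5, a subunit of the INO80 chromatin remodeller, measured 10.5, 10.6 and 10.95 FPKM without MA and 12.2, 13.2 and 12.3 FPKM with it (log2 fold change 0.27, SE 0.11, edgeR, adjusted p = 0.435). It was 0.20 without MA PANC-1 2, at an unadjusted p of 0.0545 in edgeR. ACTR2, the other actin-related subunit of Arp2/3 and the most abundant of the list, measured 106 ± 21.8 FPKM with MA and 134 ± 5.64 FPKM without (log2 fold change -0.30, edgeR, adjusted p = 0.449). It was -0.18 without MA PANC-1 2 and -0.06 with library GC trends removed.

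**Figure D5:**
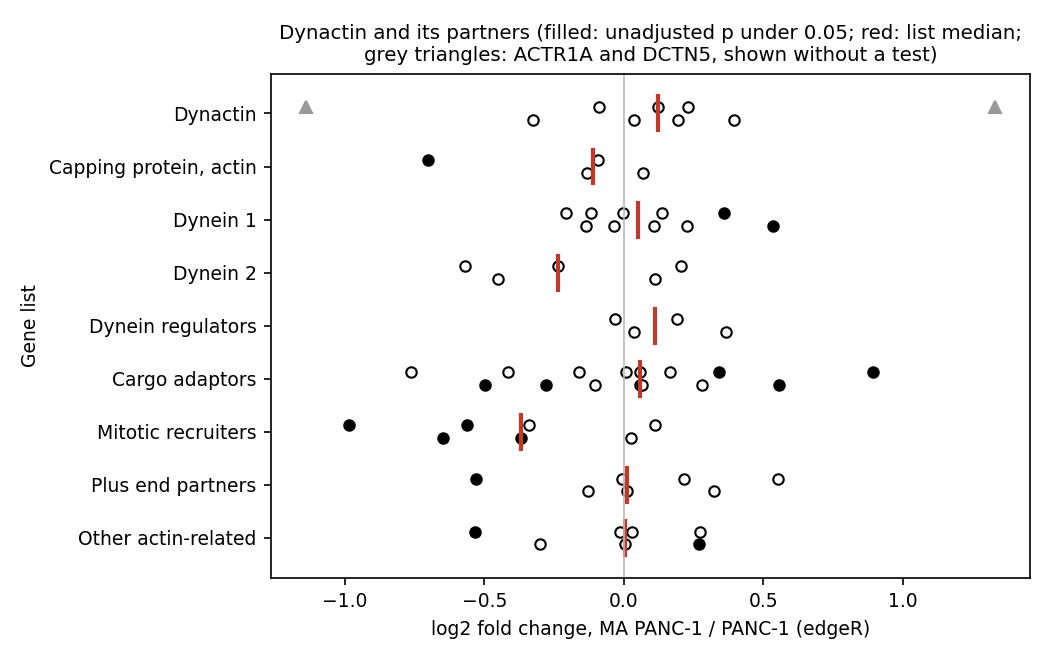
Log2 fold change between MA treated and untreated PANC-1 (horizontal axis) of the dynactin subunits and 8 lists of partner genes, 1 point per gene, filled where the unadjusted p was under 0.05, with the list median in red. ACTR1A at 1.33 and DCTN5 at -1.14 (grey triangles) are shown without a test. Of the 7 mitotic recruiters 4 are filled, all to the left of 0, beside 5.86% of all genes downward. This count was 0 to 5 when 1 sample was left out.

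The genes most like ACTR1A and DCTN5 were sought among the 11470 genes whose FPKM averaged 1 or more, by the root mean square difference of log2(FPKM + 0.1), centred on each gene's mean, over the 6 samples. Nearest to ACTR1A were AC012313, an uncharacterised gene at 0.227, RCAN3, of the calcineurin regulator family, at 0.247 and MXD4, a partner of MAX, at 0.253. MXD4 measured 2.28, 1.87 and 1.70 FPKM without MA and 3.63, 3.68 and 3.20 FPKM with it, a smaller difference than that of ACTR1A.

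Nearest to DCTN5 were P2RX5-TAX1BP3, a read-through of a pair of neighbouring genes whose reads may belong to either, at 0.282, TCEA1, a transcription elongation factor, at 0.301 and the pseudogene RPL23AP7 at 0.358. TCEA1 measured 15.6, 34.4 and 33.6 FPKM in PANC-1 1, 2 and 3 and 17.4, 12.7 and 19.7 FPKM in MA PANC-1 1, 2 and 3. PANC-1 2 and 3 were high in both genes. PANC-1 1 was low in both, below every MA sample for DCTN5 and between them for TCEA1. The likeness was the ground for naming these 6 genes and is not tested.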

How the data were processed

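PANC-1 RNA (poly(A) selected, dUTP strand-marked kit) was sequenced in 3 MA treated and 3 untreated samples, grouped by the labels. The submitters' processing notes name cutadapt 1.9, HISAT2 2.0.4, StringTie 1.3.4d, edgeR and DESeq2, without their roles. The authors deposited for each of 58825 genes an FPKM value per sample, 0.0001 where no read was found, and an estimated count, a whole number that was not normalized, on which the test was run. The length implied by the count, the FPKM and the library's total count was 1.194 times the union of GENCODE release 29 exons (median of 12148 genes). Of these genes 92.15% were within 5% of this ratio. The ratio is thus a factor common to nearly all genes, and apart from it the lengths followed the exon unions. Of 58552 identifiers shared with that release, 47519 had the same position in GRCh38, and 30337 genes had no count.

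The 17774 genes whose FPKM averaged 0.1 or more, all 9 subunits included, were compared by edgeR's quasi-likelihood test with TMM and Benjamini-Hochberg adjustment (edgeR 4.0.16 under R 4.3.3, with DESeq2 1.42.0 and limma 3.58.1 for the alternatives). DEGs needed a fold of 2 or more, or of 0.5 or less, and an unadjusted p under 0.05. An SE is the log2 fold change divided by the square root of F. The scripts were tested on simulated data. Replicate libraries of a group differed by more than sampling noise, with chi-square values per degree of freedom of 54.5 to 131.3 if each count is taken as 1 fragment. Since a permutation of 3 against 3 samples cannot give a p under 0.1, none was used. Precision rests on the spread between replicates, not on the depth.

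The members and the gene lists were chosen with earlier results of these data known. Named were all subunits, capping protein and ACTB, in every other list the most abundant gene and up to 3 genes with the smallest p under 0.05, a gene overlapping a subunit on its strand with 10 or more counts in a sample (AC006030), and the 3 genes most like ACTR1A and DCTN5. HOOK3, RAB11FIP3, SPDL1, DYNC1H1, PAFAH1B1, AC008870, LEPROTL1 and the genes on the opposite strand were named after their values were seen. Sequences were read from GRCh38 and GENCODE release 29. Alternatives were DESeq2, RLE factors, a mean FPKM of 1 as the filter, no filter, limma on log2(FPKM + 0.01, 0.1 or 1) with and without quantile normalization, halved counts, overlapping genes summed, a replicate block and leaving out each sample, and, added after seeing the data, removal of each library's GC trend (loess span 0.5, over genes averaging 100 counts or more) with and without the block.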

Additional observations from a re-analysis of the deposited data

How the results depend on the processing

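As a description, since their difference led to the choice of the complex, the log2 fold change of ACTR1A lay between 1.24 and 1.33 in the 13 alternatives on all samples and between 1.23 and 1.43 when 1 sample was left out, and that of DCTN5 between -1.16 and -0.77 and between -1.55 and -0.83. DCTN5 fell short of the DEG rule with limma at each pseudocount and after quantile normalization. It also did so with the replicate block, with the GC trend removed, with both together, and in most fits without 1 sample. The number of dynactin DEGs was 1 to 2. It held only genes whose values led to the choice, and nothing is read from it. The cause was not tested. Of the other 7 subunits, 0 at an unadjusted p under 0.05, DCTN2 passed it with the replicate block (0.23), with the GC trend removed (0.16) and with both (0.16), ACTR10 with the GC trend removed (0.23) and with both (0.23), DCTN3 with DESeq2 (0.39) and without MA PANC-1 1 (0.53), DCTN6 with the block (-0.32) and without PANC-1 2 (-0.46), and DCTN1, DCTN2 and DCTN6 without MA PANC-1 3 (0.26, 0.30 and -0.43). Upward calls took 7.57% of all genes with the GC trend removed, 6.73% with both, 5.5% with the block and 3.8% without MA PANC-1 1. Downward calls took 6.96% with the block and 4.2% without PANC-1 2. Without MA PANC-1 3 upward calls took 8.39% and downward calls 9.69%. The share with DESeq2 is not given. DESeq2 gave DYNLL2, HAP1 and ACTR3 an adjusted p under 0.05, which edgeR did not. Estimated counts of the subunits ran from 1275 to 38702 per sample. They are not numbers of fragments, so depth is not read from them, and the spread between samples limits these values.

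The number of DEGs over all genes was 342, and 327 with the replicate block. It was 44 with limma on log2(FPKM + 1), 93 at a mean FPKM of at least 1, 569 without a filter, and 326 to 534 when 1 sample was left out, 534 without MA PANC-1 3. Quantile normalization gave 156 higher and 172 lower DEGs against 120 and 222. Genes at an adjusted p under 0.05 numbered 7, and 263 with DESeq2, 33 with the GC trend removed, 24 without MA PANC-1 2, 3 without PANC-1 2, 1 with the GC trend removed and the block, and 0 with the block alone, where an unadjusted p under 0.05 held for 5.5% of genes upward and 6.96% downward. Dynein regulators and cargo adaptors held 0 DEGs, 1 without a filter, and 0 to 1 when 1 sample was left out. Mitotic recruiters and plus end partners held 0, and 1 with limma at pseudocounts of 0.01 and 0.1, after quantile normalization, at a mean FPKM of at least 1 and with the block, and 0 to 1 when 1 sample was left out. Over all genes these settings on all samples gave 408, 366, 328, 93 and 327 DEGs. The gene was CENPF, at -0.986 in the main fit and between -1.185 and -1.001 in these settings, so the count turned on the 2-fold line.

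Small differences changed sign. With the GC trend removed, without and with the block, the log2 fold change was -0.004 in both for ACTR1B, 0.101 and 0.052 for DCTN4, -0.025 and -0.026 for ACTB, and -0.038 in both for WDR34. With limma at pseudocounts of 0.01, 0.1 and 1 it was -0.010, -0.009 and -0.007 for ACTR10, -0.017, -0.017 and -0.015 for ZW10 and -0.027, -0.027 and -0.026 for MAPRE1, and after quantile normalization -0.011 for ACTB, -0.045 for ZW10 and -0.076 for MAPRE1, which was at -0.008 with the filter at a mean FPKM of 1. Leaving out 1 sample gave -0.046 to 0.153 for ACTR10, -0.436 to 0.27 for DCTN4, -0.009 to 0.169 for ACTB, -0.026 to 0.189 for WDR34, -0.054 to 0.139 for ZW10 and -0.022 to 0.073 for MAPRE1.

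Replicate numbers were not taken as a pairing in the main fit, since the labels name none. Deviations of same-numbered samples from their group means correlated at 0.053, 0.141 and 0.095, and those of differently numbered samples at -0.107 to 0.025. Each sample correlated best with the one of its own number, which is a hint from the data and not the design. Whether the samples were paired is therefore not settled here, and fits with a replicate block are given beside the main one.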
